A study of Mus musculus with 30 samples.

Results

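The binding of CTCF and cohesin was described around 37 autosomal mouse genes for secreted signals of the Wnt family (17 genes) and for fibroblast growth factors of the Fgf family (20 genes). The members were the peak-list entries of 30 libraries that lay within 20 kb of the body of a listed gene on the mm10 build. They were 3223 of 1352462 entries, made up of 1999 of 826969 CTCF entries and 1224 of 525493 RAD21 entries. A CTCF library held 106 to 208 of them and a RAD21 library 48 to 98, and each of the 37 genes had an entry in at least 1 library.

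The libraries were made by ChIPmentation, an immunoprecipitation of fixed chromatin in which Tn5 transposase adds the sequencing adapters, from trunks of B6CBAF1 embryos at E10.5. Control littermates (WT) gave 3 CTCF and 4 RAD21 libraries. All other libraries came from embryos homozygous for 1 of 6 alleles that remove CTCF binding sites (CBS) in the HoxD cluster, and the embryos came from trans-heterozygous crosses. Del(CBS1) gave 3 libraries per antibody and Del(CBS2) 1 per antibody. Del(CBS1-2) gave 1 CTCF and 2 RAD21 libraries, and Del(CBS1-3), Del(CBS1-4) and Del(CBS1-5) each gave 2 per antibody. None of the alleles alters a Wnt or Fgf gene, and the comparison with WT asks whether occupancy at these distant genes differed. A trunk holds many cell types, so a weak site in most cells and a strong site in few cells cannot be told apart.

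CTCF is a zinc-finger protein that binds a long DNA motif and stops the cohesin ring, of which RAD21 is a subunit, as the ring extrudes chromatin into loops. Wnt proteins are lipid-modified ligands of Frizzled receptors. Most Fgf proteins are ligands of receptor tyrosine kinases, with heparan sulfate or Klotho proteins as cofactors. In the embryonic trunk both families act in axis elongation, somite formation, limb outgrowth and neural tube patterning, and many of their genes are controlled by distant enhancers.

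A reference site was a position covered by a peak in all WT libraries of an antibody, and 115 CTCF and 54 RAD21 reference sites lay in the windows. Among the promoters of the members, those of Fgf7 and Wnt1 were the only ones with a CTCF summit in more than 2 libraries, and their upstream 250 bases are shown for that reason. They come from RefSeq annotation of GRCm38.p6, read on the plus strand, at chr2:126034408-126034657 for Fgf7 and at chr15:98789607-98789856 for Wnt1. Capitals mark a match to a loose form of the CTCF core motif (CC, any 3 bases, AG, any 2 bases, GGC), which lies on the minus strand in both.

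Fgf7 upstream: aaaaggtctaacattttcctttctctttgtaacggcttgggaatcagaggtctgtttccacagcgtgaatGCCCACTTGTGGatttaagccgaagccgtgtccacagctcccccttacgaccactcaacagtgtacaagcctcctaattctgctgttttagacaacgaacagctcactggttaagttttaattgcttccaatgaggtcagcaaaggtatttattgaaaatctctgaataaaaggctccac
Wnt1 upstream: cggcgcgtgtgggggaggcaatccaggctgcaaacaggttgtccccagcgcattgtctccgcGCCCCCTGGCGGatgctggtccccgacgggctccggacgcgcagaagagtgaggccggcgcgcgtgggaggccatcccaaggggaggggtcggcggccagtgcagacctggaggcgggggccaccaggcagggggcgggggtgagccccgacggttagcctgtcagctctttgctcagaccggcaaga

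The match runs from base 71 to base 82 in the Fgf7 sequence, beyond the WT CTCF summit at base 59. In the Wnt1 sequence it runs from base 63 to base 74 and holds the summit, which is at base 69. A CTCF summit lay in the 300-base Fgf7 promoter (250 bases before to 50 after the start) in 8 of 14 CTCF libraries and a RAD21 summit in 7 of 16. For Wnt1 these numbers were 13 of 14 and 1 of 16. A stricter motif with A as the third base, every match of which is also a match of the loose one, occurred on either strand in 797 of 32851 mouse promoters (2.43%) and in 1 of 35 member promoters, that of Fgf7. The loose motif was chosen after the Wnt1 sequence was seen, and it occurred in 2828 promoters (8.61%) and in 5 of the 35. Promoter sequences were matched for 29 of the 37 genes. The sequences under the other sites were not analysed here.

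The CTCF sites near the ligand genes ran from among the strongest of the genome to barely called ones. Of the 115, 39 lay in a member's body and 76 outside, and 13 fell in the windows of more than 1 member. At least 1 CTCF site lay near 35 of the 37 genes and at least 1 RAD21 site near 26. Wnt2, which acts in lung and placenta, and Fgf5, known for its part in the hair cycle, had neither. Their windows held CTCF entries in 2 and 3 of 14 libraries and a RAD21 entry in 1 of 16 each. The median gene had 3 CTCF sites, against 2 over all 20665 autosomal protein-coding genes. Per 100 kb of window the median was 2.4 against 3.17, with 5.03 at Wnt and 2.18 at Fgf genes. The outermost CTCF site inside the windows lay 19143 bp from Wnt8b (WT percentile 79.6) and the nearest outside them 20570 bp from Fgf21 (38.4).

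**Figure D1:**
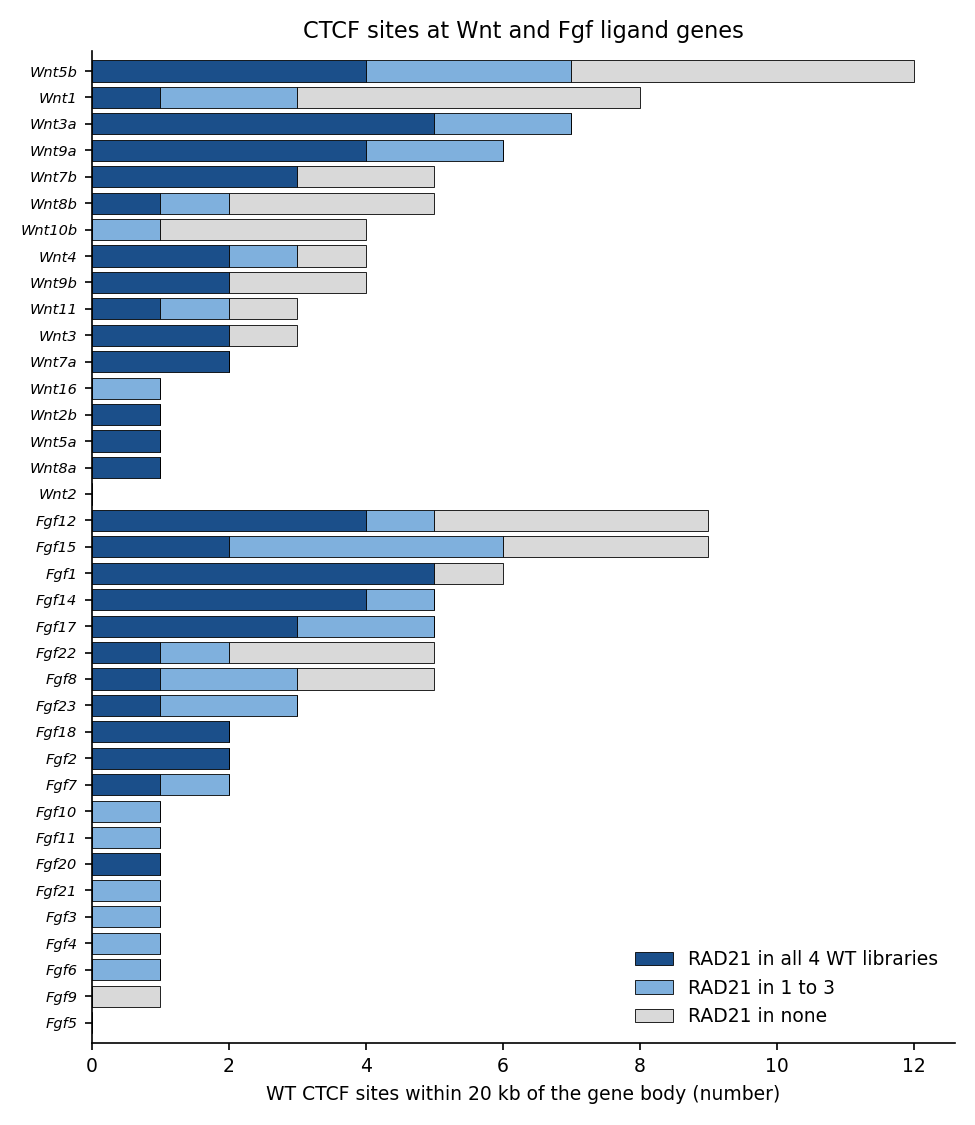
Number of WT CTCF sites within 20 kb of each gene body (bars), divided by the number of WT RAD21 libraries with a peak there. Wnt5b had the most sites, 12, and Wnt2 and Fgf5 had 0.

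Enrichment was compared as a percentile, the rank of a site's fold enrichment over local background within its library among the sites found in every library of that antibody (30976 CTCF and 12932 RAD21 sites), with 0 for no peak. The member CTCF sites had a median WT percentile of 22 (27.9 over all CTCF sites), with mean folds from 2.54 to 19. The member RAD21 sites had a median of 31.9 (29.2 over all). A peak was present in all 14 CTCF libraries at 83 of 115 sites (72.2%, against 65.0% of all reference sites), and in all 16 RAD21 libraries at 40 of 54 (74.1% against 64.5%).

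Among the Wnt genes the highest-ranked CTCF site lay 4000 bp outside Wnt8a, a gene of gastrulation-stage mesoderm. Its WT percentiles were 96.3, 95 and 92.9 (mean 94.8 ± 1.7, SD, n = 3), and the 11 mutant libraries ran from 78.3 over a median of 92.4 to 97.5. RAD21 at this site had a mean WT percentile of 77.7 ± 5.1 (SD, n = 4). Wnt5a, a ligand of non-canonical signalling needed for outgrowth of trunk and limb, had a single CTCF site in its window, inside the gene. Its WT percentiles were 84.9, 89.3 and 80.5 (mean 84.9 ± 4.4), and RAD21 there was at 61.1 ± 10.1. The WT and mutant values of both genes overlapped.

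Wnt4, which acts in kidney and gonad, carried its strongest cohesin site inside the gene, where RAD21 stood at 82.8, 77.0, 82.9 and 82.1 in the 4 WT libraries. CTCF at that site was less even, with 86.2, 62.8 and 41.2. Wnt5b, which like Wnt5a signals without beta-catenin in cartilage, had the most CTCF sites of any member, 12, of which 9 were in its body. RAD21 was in all 4 WT libraries at 4 of the 12 and in none at 5. Its strongest RAD21 site, in the Wnt5b span, had WT percentiles of 84.3, 69.7, 74.7 and 78.8.

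Neighbouring Wnt genes shared sites. Wnt3a, the canonical ligand of the tail bud, and Wnt9a had 7 and 6 CTCF sites in their windows, 5 of them in common. All 8 sites of the pair had RAD21 in at least 2 WT libraries, and 6 had it in all 4. Its rank was often low: the mean WT RAD21 percentiles, in chromosomal order, were 12.7, 42.7, 0.6, 0.8, 0.0, 16.5, 61.6 and 16.1. At Wnt1 and Wnt10b, 2 ligands of which Wnt1 is expressed in the dorsal neural tube and midbrain, the picture differed. Wnt1 had 8 CTCF sites but RAD21 in all WT libraries at 1 of them, and Wnt10b had 4 and 0. Most of the Wnt1 sites had a mean WT CTCF percentile under 10. In that range 6.56% of all CTCF sites had RAD21 in all 4 WT libraries. The site 182 bp upstream of the Wnt1 start, shown above, had a CTCF peak in all 14 libraries at low rank, with WT percentiles of 1.8, 4.3 and 9.8 and folds of 4.31, 4.50 and 6.38. RAD21 had a peak there in 0 of 4 WT libraries and 2 of 16 in all. The highest CTCF site of the pair, 5741 bp outside Wnt1, was at 43.5 ± 13.0 and had RAD21 in 2 of the 4 WT libraries.

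**Figure D2:**
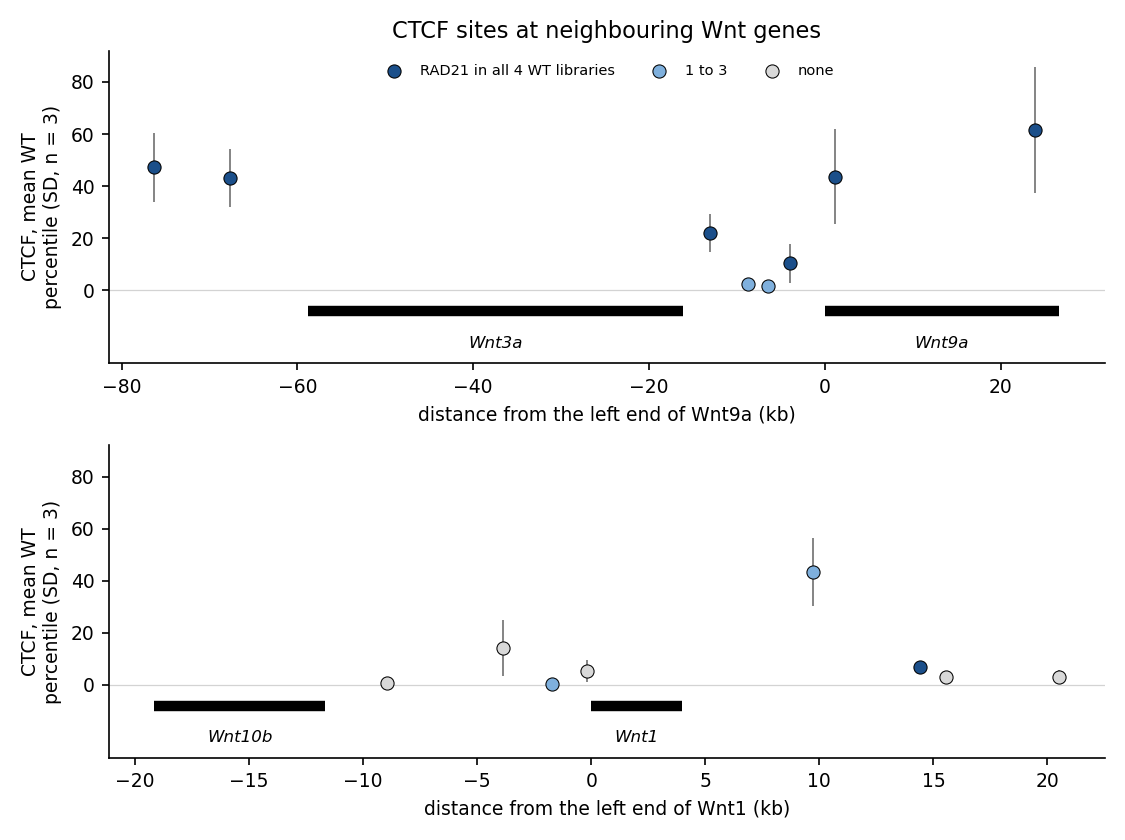
Mean WT CTCF percentile (points, n = 3, bars SD) of each site against distance in kb from the left end of Wnt9a (top) and Wnt1 (bottom), with gene bodies as black bars and shade for the number of WT RAD21 libraries with a peak. The sites around Wnt3a and Wnt9a are dark or mid blue, and 5 of the 8 at Wnt1 are grey.

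The Fgf genes held the strongest CTCF site of the set. It lay 9689 bp outside Fgf20, a ligand of the Fgf9 family active in the inner ear and tooth, and had WT percentiles of 97.0, 99.4 and 99.5 (mean 98.6 ± 1.4) and folds of 19.3, 17.3 and 20.5. The 11 mutant libraries ran from 93.8 to 99.8, and RAD21 was at 88.7 ± 6.7 in WT. Fgf9, its relative and a signal to mesenchyme in many organs, had a single CTCF site at 5.1 ± 4.2, with RAD21 in 0 of 16 libraries.

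Of the Fgf1 family, whose members lack a classical signal peptide, Fgf1 had 6 CTCF sites and Fgf2 had 2. The site at the highest rank in Fgf1 had WT CTCF percentiles of 91.4, 98.6 and 95.3, while RAD21 there stood at 4.5, 12, 2.3 and 1.6. At 2 further Fgf1 sites the antibodies were closer in rank: 84.1 ± 6.1 for CTCF and 57.1 ± 9.1 for RAD21 at one, and 77.1 ± 7.3 and 87.9 ± 7.8 at the other. Both Fgf2 sites had RAD21 in all WT libraries. The Fgf1 windows also lie in the span of Arhgap26, so these sites cannot be assigned to either gene.

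The Fgf8 family, ligands of the tail bud, limb ridge and midbrain boundary, had 5 CTCF sites near Fgf8, 5 near Fgf17 and 2 near Fgf18. The highest mean WT percentile was 44.2 at Fgf8, 74.9 at Fgf17 and 77.5 at Fgf18, and RAD21 was in all WT libraries at 1, 3 and 2 of these sites. In the Fgf7 family, Fgf10, the initiator of limb budding, had 1 CTCF site at 8.7 ± 4.4 with RAD21 in 1 of 16 libraries. Fgf22 had 5, of which 1 was strong with CTCF at 82.8 ± 3.1 and RAD21 at 80.8 ± 4.8. Fgf7 had 2, at 33.5 ± 7.8 and, in the promoter shown above, at 2.2 ± 0.8. Fgf3 of this family and Fgf4 of the Fgf4 family shared a single site at 47.7 ± 6.9, with RAD21 in 3 of 4 WT libraries.

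The intracellular Fgf genes, whose proteins bind voltage-gated sodium channels and are not secreted, include the longest bodies. Fgf12 (595461 bp) had 9 CTCF sites and Fgf14 (703246 bp) 5, which came to 1.42 and 0.673 per 100 kb. The top Fgf14 site had WT CTCF percentiles of 93.6, 97.0 and 93.9, with RAD21 between 39.8 and 62.0. Fgf12 had CTCF sites at 93.9 ± 6.2 and 93.5 ± 0.6 and the 2 highest RAD21 sites of the set, at 92.9 ± 3.1 and 92.6 ± 3.5. Fgf11, a short gene of the same group, had 1 site, or 2.13 per 100 kb. Of the endocrine Fgf genes, whose proteins reach distant organs through the blood, Fgf15 had 9 sites around a body of 4422 bp, none inside it, or 20.3 per 100 kb. Fgf23 had 6.07 and Fgf21 2.4 per 100 kb. No Fgf15 site exceeded a mean of 40, and the highest means near Fgf21 and Fgf23 were 55.1 and 53.3.

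Starts were annotated for 29 of the 37 genes. Of the CTCF sites within 1 kb of a member's start, the 8 with the highest ranks were at Wnt7a, Fgf14, Wnt16, Wnt11, Fgf12, Wnt4, Wnt1 and Wnt5b. The top one, 556 bp upstream of Wnt7a, a dorsal limb ligand, had a WT mean of 21.2 ± 7.8, and RAD21 there was at 32.7 ± 14. The other 7 had means from 3.0 to 13.7. Just beyond 1 kb the ranks were higher at some genes, with CTCF at 77.5 ± 12.4 at 1173 bp from the Fgf18 start, 43.7 ± 18.1 at 1049 bp from Wnt9a and 33.5 ± 7.8 at 1119 bp from Fgf7. These 3 were chosen after their values were seen.

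RAD21 accompanied CTCF at the ligand genes at close to the rate of the genome. It was present in all 4 WT libraries at 52 of 115 CTCF sites (45.2%, against 41.1% of 47658), in 1 to 3 at 30, and in none at 33 (28.7% against 33.6%). The share was 25 of 55 near Wnt and 27 of 60 near Fgf genes. Of the CTCF sites at a mean percentile of 0 to 10, 1 of 42 had RAD21 in all 4 (2.38%, against 6.56% of all sites in that range), and of those at 70 to 100 it was 17 of 19 (89.5% against 89.4%). Between 10 and 40 it was 17 of 27, or 63.0%, where all sites gave 27.7%, and between 40 and 70 it was again 17 of 27, where all sites gave 64.4%. Sites near 1 gene share their surroundings and all sites share the libraries, so these shares are a description.

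Some sites went against the pattern. A CTCF site 5834 bp outside Wnt9b, a kidney and facial ligand, had WT percentiles of 63.4, 62.1 and 77.1 and mutant percentiles from 58.8 to 92.6, but RAD21 had a peak there in 0 of 16 libraries. It lies in C130046K22Rik. RAD21 was likewise in none of 16 libraries at 27 of 115 member CTCF sites (23.5%, against 24.6% of all), most of them of low CTCF rank. The next highest CTCF sites with RAD21 in none of 16 were at Fgf12 (41.6 ± 27.1 and 32.9 ± 10.6), Wnt7b (29.9 ± 24.1) and Fgf1 (22.7 ± 6.8). These 5 were chosen after their values were seen.

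**Figure D3:**
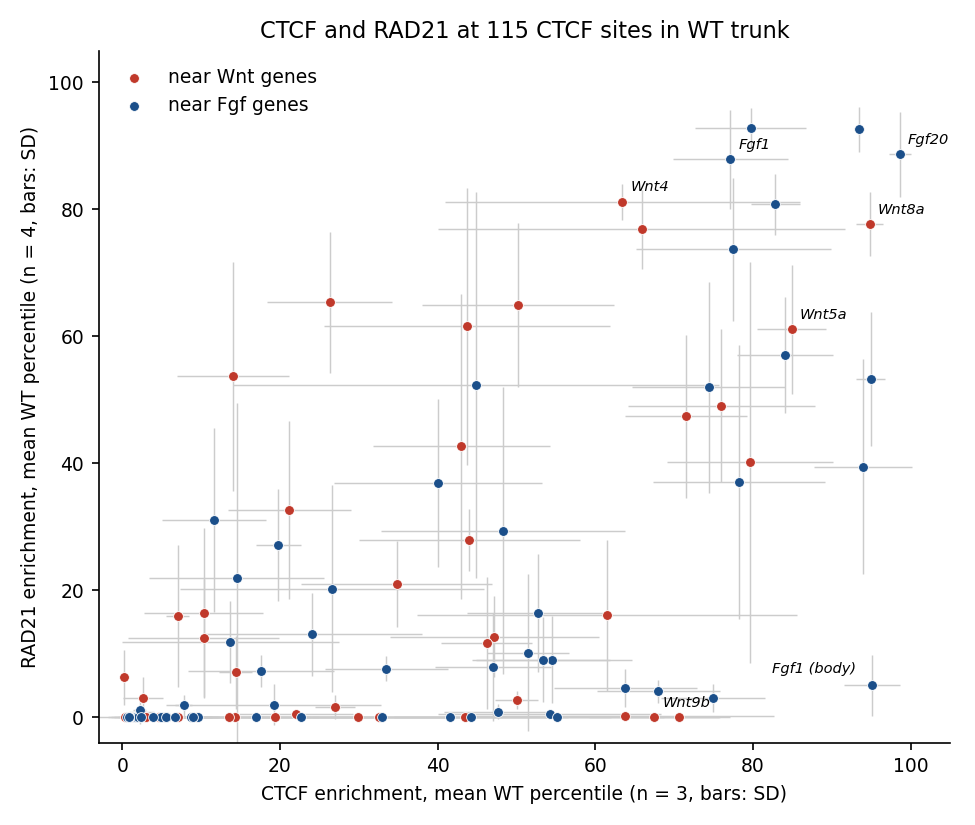
Mean WT percentile of CTCF (x, n = 3) and RAD21 (y, n = 4) at the 115 CTCF sites, with SD bars, coloured by family. The Wnt9b site at 67.5 on the CTCF axis lies at 0 for RAD21, and the Fgf1 site at 95.1 lies at 5.1.

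The reverse case, RAD21 without CTCF, occurred once among 54 RAD21 sites (89 of 20061 over all, 0.444%). It lay 19133 bp upstream of a start of Wnt11, a ligand of cell movements in gastrulation and of the ureteric bud. RAD21 stood there at 33.7, 57.1, 73.4 and 0.1 in the WT libraries. Del(CBS1) gave 65.8, 0 and 0, Del(CBS1-2) gave 77.2 and 54.2, Del(CBS1-3) gave 79.5 and 0, and Del(CBS2) gave 1.4. All libraries of Del(CBS1-4) and Del(CBS1-5) were at 0. The site was thus high in 7 libraries, near 0 in 2 and without a peak in 7, and replicates of 1 genotype fell on both sides. Where a peak was called its -log10 q reached 176 in a Del(CBS1-2) library and was as low as 2.77 in WT replicate 4. CTCF had a peak there in 1 of 14 libraries.

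No tested site near the ligand genes had a called rank change. Only sites found in every library were tested, and Wnt2, Fgf5, Fgf9, Fgf10 and Wnt16 had none. Of the alleles, Del(CBS1) and Del(CBS1-5) were also compared with WT on their own. A limma fit over all sites found in every library, adjusted by Benjamini-Hochberg at 0.05, called 0 of 83 member CTCF sites and 0 of 40 member RAD21 sites in the comparison of all mutant libraries with WT. Over all sites it called 0.0% for CTCF and 0.0% for RAD21. At an unadjusted p under 0.05 there were 0 and 1 member sites, against 1.83% and 2.78% of all sites. Changes are in normal-score units, the ranks mapped onto a standard normal distribution, as mutant minus WT. The members' median change was 0.023 for CTCF and 0.018 for RAD21, and the medians at sites near all autosomal protein-coding genes were 0.001 and -0.001. The CTCF changes ran from -0.43 to 0.70 and the RAD21 changes from -0.43 to 0.67.

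The other contrasts share the WT libraries with this one, and they too called no member site. Against the number of mutated sites, 0 of 83 CTCF and 0 of 40 RAD21 slopes were called (0.0% of all sites for each antibody), with 1 and 0 at an unadjusted p under 0.05 (2.58% and 5.2% of all sites). For Del(CBS1) against WT the calls were 0 and 0 (0.0% for each). At an unadjusted limma p under 0.05 there were 8 of 83 and 4 of 40, larger shares than over all sites (5.43% and 5.14%). For Del(CBS1-5) against WT the calls were 0 of 83 (0.0%) and 0 of 40 (0.0464% of all RAD21 sites). There, 2 and 2 were at an unadjusted p under 0.05 (1.61% and 9.56% of all sites). The members' median changes in Del(CBS1) were 0.069 for CTCF and -0.023 for RAD21, against 0.015 and -0.002 over all sites. In Del(CBS1-5) they were -0.049 and 0.156, against -0.006 and 0.006. For RAD21 in Del(CBS1-5), 25 member sites were higher and 15 lower, where 50.6% of all sites were higher. For CTCF the split was 51 to 32 in Del(CBS1) (51.6% of all sites higher) and 37 to 46 in Del(CBS1-5) (49.2%). The CTCF slopes split 33 to 50 (49.0%). Median slopes were -0.013 and 0.005, against -0.001 for each antibody over all sites. These medians and splits were not tested. The limma alternatives without robust fitting, on ranks of -log10 p and on centred log2 folds also called 0 member sites in these contrasts.

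**Figure D4:**
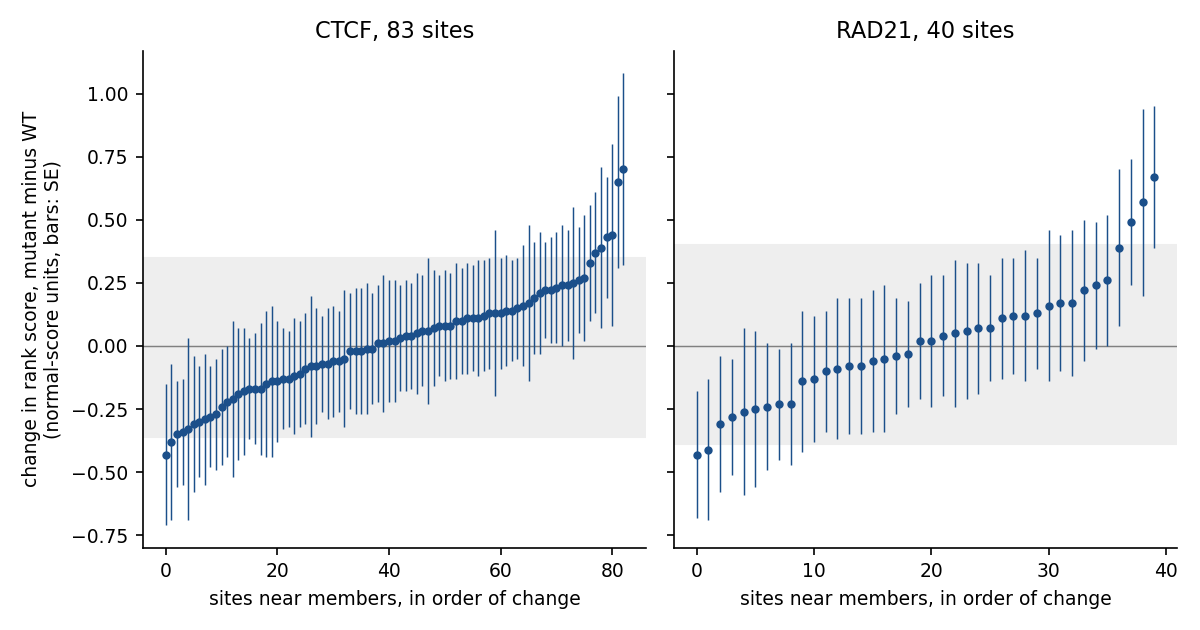
Change in rank score (y, normal-score units, bars SE), all mutant libraries minus WT, at the 83 CTCF and 40 RAD21 sites near members, in order of change. The grey band holds the 5th to 95th percentile of all tested sites, -0.36 to 0.35 for CTCF and -0.39 to 0.40 for RAD21, and most points lie in it.

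The smallest p in the comparison of all mutant libraries belonged to Fgf23, the phosphate hormone, and Fgf1 for CTCF and to Wnt5b for RAD21. The Fgf23 site, which lies in Tigar 4535 bp outside Fgf23, had WT CTCF percentiles of 19.2, 1.7 and 22.5, and the mutant libraries ran from 3.6 over a median of 31.1 to 56.2. Its change was 0.65 ± 0.34 (SE) with a limma adjusted p of 1.0. The RAD21 sites in Wnt5b had WT percentiles of 2.3, 1.5, 2.5 and 4.7 at one, which also lies in Fbxl14, and of 69.7 to 84.3 at the other. Mutant medians were 10.2 and 89.4, with changes of 0.67 ± 0.28 and 0.49 ± 0.25 and limma adjusted p of 1.0 for both. WT and mutant values overlapped at all of these sites.

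The Fgf1 site, 1153 bp outside the gene and inside Arhgap26 and Gm5820, varied more between libraries, and its CTCF change over all mutant libraries was 0.70 ± 0.38 (limma adjusted p = 1.0). The 3 WT libraries had CTCF percentiles of 80.6, 26.4 and 27.9, and Del(CBS1) had 87.1, 91.1 and 89.8. Del(CBS2) had 86.8 and Del(CBS1-2) 44.4, while Del(CBS1-3) had 67.9 and 52.7, Del(CBS1-4) 86.2 and 76.6, and Del(CBS1-5) 34.6 and 37.5. WT replicate 1 was close to the Del(CBS1) libraries and the other WT libraries were below every mutant library.

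RAD21 at the same Fgf1 site ran alike, with 96.6, 50.9, 33.5 and 48.2 in WT and 85.0, 98.7 and 94.0 in Del(CBS1). Del(CBS2) was at 94.1, Del(CBS1-2) at 54.3 and 62.5, Del(CBS1-3) at 69.3 and 78.0, Del(CBS1-4) at 92.7 and 84.8 and Del(CBS1-5) at 56.3 and 59.9. Per mutated HoxD site the slopes were -0.07 ± 0.10 for CTCF and -0.03 ± 0.10 for RAD21. Neither was called (limma adjusted p of 1.0 and 0.995). The Fgf1 RAD21 values were chosen for description after they were seen.

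For Del(CBS1) against WT the Fgf1 change was 1.37 ± 0.32 for CTCF (limma adjusted p = 0.568) and 1.26 ± 0.38 for RAD21 (limma adjusted p = 0.834). The CTCF values of these 2 groups did not overlap, and the RAD21 values did. With WT replicate 1 left out, the change was 1.86 ± 0.28 for CTCF (limma adjusted p = 0.0147) and 1.75 ± 0.31 for RAD21 (limma adjusted p = 0.0376), and both were then called. In each antibody 1 WT library therefore decided the call, and the labels do not pair these libraries. Del(CBS1-5) differed from WT by -0.24 ± 0.35 and -0.14 ± 0.43 (limma adjusted p = 1.0 and 0.947).

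**Figure D5:**
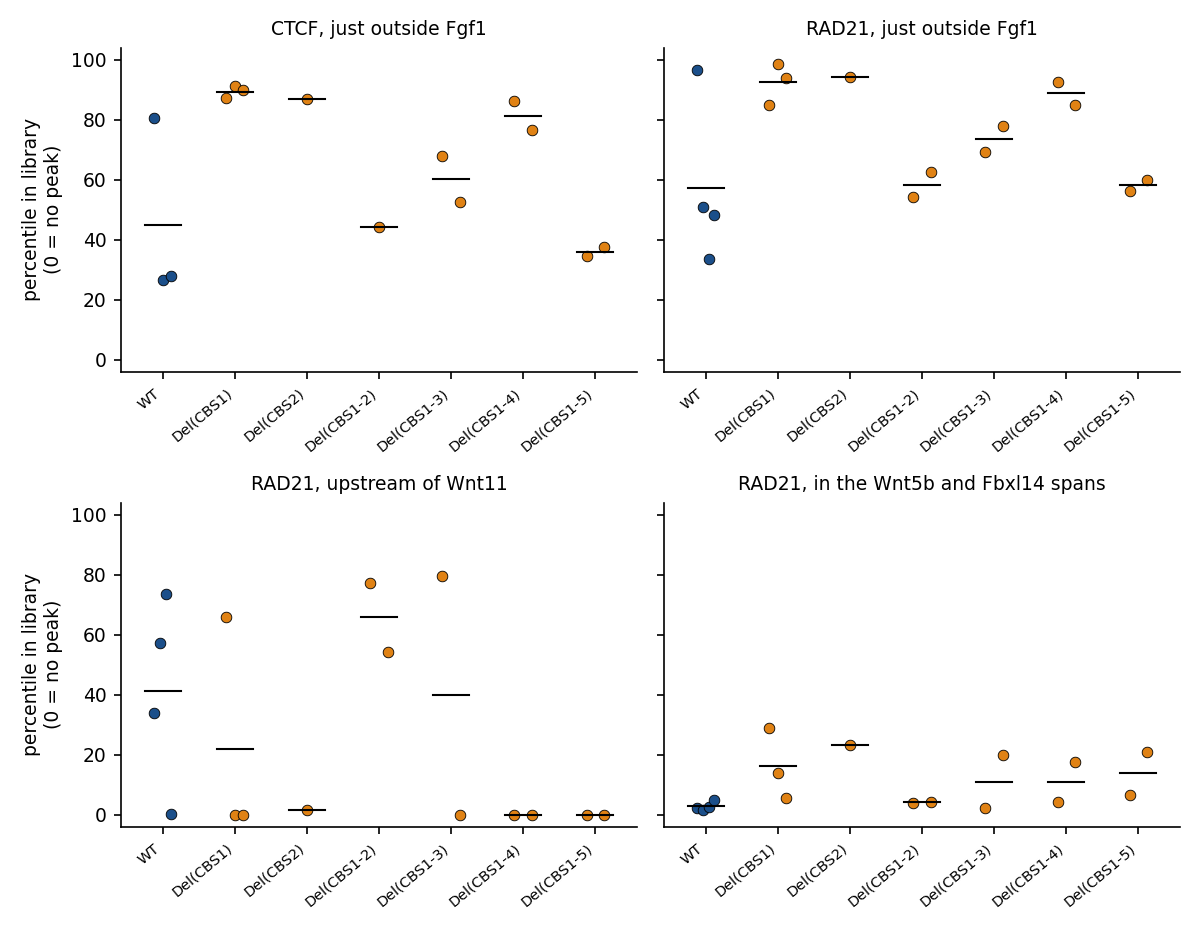
Percentile in each library (points, 0 for no peak, lines are group means) by genotype at the Fgf1 site for CTCF and RAD21, at the Wnt11 RAD21 site and at the Wnt5b RAD21 site with the smallest p. The Fgf1 values of WT replicate 1 (80.6 and 96.6) lie apart from the other WT libraries, and the Wnt11 site falls to 0 in 7 libraries.

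Few member sites met the criterion of a lost or gained peak. Del(CBS1) lost 4 of 115 CTCF sites, meaning a peak in all WT and no Del(CBS1) library (3.48%, against 2.95% of all sites). They lay in the bodies of Wnt8b, Fgf12 and Wnt5b and 1737 bp upstream of Wnt1, and had mean WT folds of 4.88, 4.05, 3.87 and 2.54. Del(CBS1) gained 0 of 99 CTCF sites (0.0415% over all), and lost 0 of 54 RAD21 sites (0.389%) and gained 0 of 48 (0.0235%). The lists of Del(CBS1) CTCF replicates 2 and 3 were short, at 40667 and 44550 entries against 52925 to 75027 in WT, and the part of list length in the losses was not tested.

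Del(CBS1-5) lost 0 of 115 CTCF sites (0.443% over all) and gained 1 of 138 (1.41%), 4111 bp outside Wnt5a. That site had folds of 3.52 and 3.26 in Del(CBS1-5) and a peak in 6 of 14 libraries, of other alleles too. Of the RAD21 sites Del(CBS1-5) lost 2 of 54 (3.7%, against 4.28% of all), and gained 0 of 46 (0.0767%). The lost ones were the Wnt11 site described above, with a mean WT fold of 7.82, and the Fgf1 site where RAD21 was low beside strong CTCF, with 5.18. The Del(CBS1-5) RAD21 lists held 26742 and 16676 entries against 22449 to 39841 in WT, and the part of length was not tested here either. Among the sites most often missing otherwise, a CTCF site 14544 bp outside Wnt11 (WT mean 1.6 ± 1.3) had a peak in 8 of 14 libraries and a RAD21 site in Fgf12 (0.6 ± 0.3) in 13 of 16.

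Genes of the receiving side of both pathways gave the same count of 0 calls. The lists held 15 Wnt receptors, 18 secreted Wnt modulators, 25 Wnt signal transduction genes, 12 Fgf receptors and cofactors and 12 feedback and target genes of Fgf signalling. Of 166 CTCF and 64 RAD21 sites tested within 20 kb of them, counted list by list, limma called 0 in each of the 4 contrasts, and 2 to 12 CTCF and 3 to 4 RAD21 sites were at an unadjusted p under 0.05. Over all sites that share was 1.61% to 5.43% for CTCF and 2.78% to 9.56% for RAD21. The 12 CTCF sites were those of Del(CBS1) against WT, where the share over all sites was 5.43%. In the comparison of all mutant libraries with WT the list medians ran from -0.099 to 0.025 for CTCF and from -0.016 to 0.145 for RAD21. RAD21 was in all 4 WT libraries at 30.2% of CTCF sites near Wnt receptors, 30% near modulators, 32.7% near Wnt transduction genes, 33.3% near Fgf receptors and cofactors and 51.6% near Fgf feedback and target genes. It was 45.2% near the ligands and 40.3% near all autosomal protein-coding genes.

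As a check of the labels, 1 of 12 WT CTCF sites in the HoxD cluster had peaks in exactly the libraries labelled as keeping CBS3, 1 as keeping CBS4 and 1 as keeping CBS5. No site met this strict pattern for CBS1 or CBS2. The lists held 40011 to 88323 CTCF and 16676 to 48102 RAD21 entries, and read depth was unknown.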

How the data were processed

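CTCF and RAD21 ChIPmentation of E10.5 trunks gave 30 peak lists on mm10, called per library. MACS2 2.1.1.20160309 and bedtools 2.27.1 are named in the submitters' processing notes, beside Picard 2.19.0 and SAMtools 1.9, with Bowtie2 2.3.5 and cutadapt 1.16. The authors deposited for each peak a score, a signal value that is a ratio (fold enrichment over background), -log10 p, -log10 q and a summit offset. Lists hold no reads, so depth is unknown and folds were compared as ranks within a list. The labels do not say that replicates are separate litters, and p-values measure the spread between these libraries.

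WT summits within 150 bp were linked into 47658 CTCF and 20061 RAD21 reference sites, each covered by a peak in all WT libraries on chromosomes 1 to 19, X and Y. A library had a site when a peak covered its summit. Normal scores of ranks were fitted with limma 3.58.1 (R 4.3.3, robust, trend) at an adjusted p of 0.05 over all sites, and the fit was tested on simulated data. For all mutant libraries against WT, a planted shift of 1.0 was recovered at 50.7% of CTCF and 47.4% of RAD21 sites. A shift of 2.0 was recovered at 98.4% and 100.0%. False calls over all shifts were 11 and 10. No shift under 1.0 was planted, so the recovery of smaller changes is not known. The simulated libraries were drawn independently from each site's mean and SD, so recovery in the real lists may differ. Other steps ran in Python 3.11.15 with pandas 2.3.3, scipy 1.17.1, numpy 2.4.6 and matplotlib 3.10.9. Gene spans came from RefSeq.

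The members and the gene lists were chosen with earlier results of these data known. Named sites were called sites or else the 2 smallest p per antibody, up to 4 lost or gained sites per direction, the 8 highest WT ranks, the 8 highest within 1 kb of a start, and the up to 4 per antibody absent from the largest number of mutant libraries. Settings varied were the match (summits 100 bp apart at most, or any base 250 bp away at most), a minimum -log10 q of 10, a minimum of 2 WT libraries, rank and limma options, omission of the weakest 25% of sites, windows of 5 and 50 kb, a replicate block, and omission of each library.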

Additional observations from a re-analysis of the deposited data

Results flagged for a closer look

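At the 15 named RAD21 sites the 4 WT libraries were screened for a value set apart from the others by Dixon's 95% criterion, and 2 sites met it. Chance alone flags about 1 group in 20. At the RAD21 site inside Wnt4, WT replicate 2 had a percentile of 77.0 where the others had 82.1 to 82.9. At the RAD21 site 787 bp upstream of a Wnt11 start, WT replicate 4 stood at 26.4 where the others had 7.4 to 8.3. The CTCF groups hold at most 3 libraries and were not screened.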

How the results depend on the processing

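The results varied here were counts and shares, which have no direction that could reverse. The count of member sites with a called rank change stayed at 0 in every contrast, antibody and alternative, with the exception of 1 CTCF and 1 RAD21 site for Del(CBS1) without WT replicate 1, so that its range on leaving out libraries was 0 to 1; in the other 3 contrasts it was 0 to 0. The counts of lost and gained sites depended on the settings. Lost and gained were defined on all libraries of WT and of the allele, so omitting 1 of these libraries loosens the criterion. The cause of the other changes was not tested. The counts over all sites moved too. CTCF sites lost in Del(CBS1) went from 1405 to 7213 of 47658 without its replicate 1 (12 of 115 member sites). CTCF sites gained in Del(CBS1-5) went from 781 to 8118 without its replicate 2 (16 of 169 member sites). RAD21 sites lost in Del(CBS1-5) went from 859 to 5366 of 20061 without its replicate 1 (10 of 54). The member counts of lost and gained sites below stand without the count over all sites, so no trait of the members is read from them. CTCF sites lost in Del(CBS1) were 2 at -log10 q of at least 10, 9 with sites in at least 2 WT libraries, 7 with 50 kb windows and 4 to 12 on leaving out libraries (9 without WT replicate 1, 12 and 7 without Del(CBS1) replicates 1 and 3). CTCF sites gained in Del(CBS1) were 1 with summits within 100 bp and 0 to 1 on leaving out libraries, and those lost in Del(CBS1-5) 0 to 3 (3 without replicate 1). CTCF sites gained in Del(CBS1-5) were 4 with summits within 100 bp, 5 with any base within 250 bp, 2 at -log10 q of at least 10, 2 with 50 kb windows and 2 to 16 on leaving out libraries (7 and 16 with Del(CBS1-5) replicate 1 or 2 omitted, 2, 2 and 11 with WT replicate 1, 2 or 3 omitted). RAD21 sites lost in Del(CBS1) were 3 with sites in at least 2 WT libraries and 0 to 1 on leaving out libraries, the same range as those gained. RAD21 sites lost in Del(CBS1-5) were 0 at -log10 q of at least 10, 16 with sites in at least 2 WT libraries, 1 with 5 kb windows and 2 to 10 on leaving out libraries (10 with Del(CBS1-5) replicate 1 omitted, 7, 4 and 4 with WT replicate 1, 2 or 3 omitted), and 1 was gained with summits within 100 bp. The share of CTCF sites with RAD21 in all WT libraries was 34.4% at -log10 q of at least 10 (34.0% over all sites) and ran from 40.3% to 52.2% on leaving out libraries.

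With the replicate number as a block, 0 member sites were called in any contrast. This setting left out the CTCF Del(CBS1-2) library. RAD21 WT replicate 4 was the only library with its number, so the block term took up its values. The labels do not say that the numbers pair libraries, and deviations of same-numbered CTCF libraries correlated above 0.1 in 6 of 21 pairs and of RAD21 libraries in 1 of 31, which did not meet the criterion for pairing. Whether a number marks a shared litter or day is not given in the sources used here. The fits of all mutant libraries against WT and of the slope had no term for the single alleles. Differences between alleles therefore counted as spread there. In the slope, Del(CBS1) and Del(CBS2) both stood at 1 mutated site. In the fit with separate genotypes, Del(CBS2) and CTCF Del(CBS1-2) had 1 library each, and their spread was taken from the other groups.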
